A study of Mus musculus with 12 samples.

Results

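Acetylation of histone H4 at lysine 8 (H4K8ac), a mark of active chromatin measured by chromatin immunoprecipitation and sequencing, was examined at 9 genes of MHC class I antigen presentation and the interferon response in oligodendrocyte progenitor cells (OPCs) from neonatal and adult mouse forebrain. The genes were H2-K1, H2-D1, B2m, Tap1, Tap2, Psmb8, Psmb9, Nlrc5 and Irf1, chosen by name out of 20137 protein-coding genes. A gene entered the 20137 if RefSeq's promoter table or, failing that, a deposited peak list gave its strand. Genes with neither were left out, so shares over all genes may be too high. Of the 269580 peaks in 6 deposited lists, 49 were assigned by the authors to one of the 9 genes. The neonatal cells were sorted at postnatal day 5 and the adult cells at postnatal day 60, both from PdgfrαH2BEGFP reporter mice with no treatment named in the labels. Each age had 3 libraries labelled as biological replicates, called neonatal 1 to 3 and adult 1 to 3 here, and the series also holds 6 input samples that are not analysed here. The labels do not say whether animals were pooled or which sex they were, and a reporter driven by Pdgfra marks any cell that carries the reporter protein, including the young progeny of OPCs and other Pdgfra-expressing cells of the brain.

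MHC class I molecules show peptides from inside the cell to CD8+ T cells. The peptides are cut by the proteasome, in which interferon can exchange standard subunits for immunoproteasome subunits such as Psmb8 and Psmb9, and are pumped into the endoplasmic reticulum by the Tap1-Tap2 transporter, where they are loaded onto a heavy chain (H2-K1 or H2-D1) paired with the light chain B2m. Nlrc5 and Irf1 are transcriptional activators of these genes, and interferon-γ induces both. Neural cells carry little MHC class I in the resting brain, and OPCs can raise it after exposure to interferon-γ.

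The libraries differed in the number of peaks before any gene was considered. The neonatal lists held 9097, 31189 and 7353 peaks and the adult lists 72278, 72661 and 77002. Promoters took 67.5% to 88.8% of the neonatal peaks and 40.4% to 43.9% of the adult peaks. Read totals are not in the lists. The background level against which peaks were scored, recovered from the steps between the fold values, was 2.64 to 2.96 fragments per position in the neonatal and 1.77 to 3.53 in the adult libraries. Of 16 OPC marker genes, 15, 16 and 10 had a promoter peak in neonatal 1 to 3, and 14, 13 and 14 had one in adult 1 to 3. Of 10 mature oligodendrocyte genes, 2, 3 and 1 had a promoter peak in the neonatal libraries and all 10 had one in each adult library, where the share over all genes was 25.2% to 57.2% in the neonatal and 58.4% to 60.5% in the adult libraries. Of 12 microglial genes in the gene table used, Cx3cr1 had an assigned promoter peak in the 3 adult libraries, though no peak lay within 3000 bp of the start used here, and the other 11 had none assigned in any library. By position, Cd68 had 158 bp under a peak near its start in neonatal 2 and 595, 969 and 301 bp in adult 1 to 3, Aif1 had 181 bp in adult 1, and P2ry12 and Ptprc had 0 bp throughout. Of 16 endothelial genes, 1, 5 and 1 had a promoter peak in the neonatal and 6, 5 and 5 in the adult libraries, with Pecam1 and Kdr assigned one in the 3 adult libraries alone and Cldn5, Cdh5 and Flt1 in none. By position, Kdr had 490, 501 and 1010 bp under a peak near its start in adult 1 to 3, and Pecam1 had 0 bp in every library. Of 8 fibroblast and mural genes, 0, 4 and 0 had one in the neonatal and 1, 2 and 1 in the adult libraries. The part of cell composition in the results below was not tested; the number of peaks is made equal between libraries in a comparison below.

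The 250 bases before the start of 5 of the genes are printed here because peaks lay beside or over them, and because these stretches hold the short elements through which class I genes are known to be read. They come from RefSeq promoter windows (GRCm38.p6, 250 bases before to 50 after a start), which matched 7 of the 9 genes. Capitals mark matches on either strand to 6 motifs: the interferon-stimulated response element GAAANNGAAA, a looser form of it GAANNGAAA (which the stricter motif contains), the gamma-activated site TTCNNNGAA, the X2 box core TGACG, the Y box core CCAAT, and the class I enhancer A motif GGGNNTTCC. A reverse-strand match reads as the complement, for example ATTGG for the Y box core.
H2-K1, chr17:34000348-34000597, minus strand: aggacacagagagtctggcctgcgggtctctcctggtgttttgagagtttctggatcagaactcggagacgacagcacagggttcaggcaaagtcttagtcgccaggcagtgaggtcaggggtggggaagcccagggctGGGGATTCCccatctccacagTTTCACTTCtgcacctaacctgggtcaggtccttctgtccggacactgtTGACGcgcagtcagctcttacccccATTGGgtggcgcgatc
H2-D1, chr17:35262844-35263093, plus strand: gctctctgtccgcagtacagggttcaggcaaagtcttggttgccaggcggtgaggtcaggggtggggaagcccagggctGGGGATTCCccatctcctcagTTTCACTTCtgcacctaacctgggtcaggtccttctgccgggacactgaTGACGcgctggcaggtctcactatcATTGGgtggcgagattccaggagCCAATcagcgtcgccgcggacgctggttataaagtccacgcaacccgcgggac
B2m, chr2:122147437-122147686, plus strand: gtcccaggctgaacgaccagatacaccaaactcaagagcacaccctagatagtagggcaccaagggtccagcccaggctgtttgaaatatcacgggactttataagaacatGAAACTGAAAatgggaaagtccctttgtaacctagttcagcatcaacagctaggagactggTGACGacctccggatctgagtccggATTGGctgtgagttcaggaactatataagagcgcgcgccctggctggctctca
Tap1, chr17:34187306-34187555, plus strand: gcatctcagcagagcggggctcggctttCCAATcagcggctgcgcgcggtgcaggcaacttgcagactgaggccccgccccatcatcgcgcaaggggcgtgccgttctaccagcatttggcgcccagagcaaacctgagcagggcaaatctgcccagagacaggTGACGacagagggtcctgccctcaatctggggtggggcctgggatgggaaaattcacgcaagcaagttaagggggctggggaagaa
Irf1, chr11:53769764-53770013, plus strand: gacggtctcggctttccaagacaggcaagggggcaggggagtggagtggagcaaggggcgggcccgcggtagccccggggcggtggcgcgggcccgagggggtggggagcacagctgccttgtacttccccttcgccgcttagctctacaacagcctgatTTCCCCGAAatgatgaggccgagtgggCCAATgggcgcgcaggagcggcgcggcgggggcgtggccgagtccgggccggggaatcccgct

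The 2 heavy chain promoters carried the same motifs in the same order: enhancer A, then the looser response element on the reverse strand, an X2 core, a Y core on the reverse strand and a Y core on the forward strand, the last of which falls after the start in H2-K1 and so beyond its printed stretch. In their RefSeq windows, 211 of 239 aligned bases were identical (88.3%). Among 26794 RefSeq promoter windows, 11 held all 4 of enhancer A, the looser response element, the X2 core and the Y core, and 5 of those 11 were H2 genes: H2-D1, H2-K1, H2-M2, H2-Q4 and H2-Q7. These 4 motifs were taken because the heavy chain promoters held them, so H2-D1 and H2-K1 were among the 11 by construction. The count is a description and was not tested. B2m held a full response element, GAAACTGAAA, at -139 to -130 bases from its start, followed by an X2 core and a reverse-strand Y core. The Tap1 stretch is also the promoter of Psmb9, whose start lies 226 bp away on the other strand, and both share 1 X2 core and 1 Y core. Irf1 held the gamma-activated site TTCCCCGAA at -90 to -82 bases from its start, followed by a Y core. Psmb8 held 1 gamma-activated site, TTCCCAGAA, at -97 to -89 bases. The stricter response element occurred in 3.51% of all windows, the looser one in 7.61%, the gamma-activated site in 8.51%, the X2 core in 21.2%, the Y core in 38.1% and enhancer A in 5.76%. These are matches of letters, and binding of a factor was not measured.

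A promoter peak, as the authors' annotation assigned it, was found at 0, 7 and 3 of the 9 genes in neonatal 1 to 3, and at 8, 7 and 6 in adult 1 to 3. Among all 20137 genes the corresponding shares were 28.3%, 57.2% and 25.2% in the neonatal libraries and 60.5%, 58.4% and 59.3% in the adult libraries. Neonatal 1 stood at 0 and neonatal 2 was level with adult 2. In these sorted populations, fewer cells with the mark and less of the mark per cell cannot be told apart. H2-K1, H2-D1, B2m, Tap1, Tap2 and Irf1 had a promoter peak in all 3 adult libraries, a pattern shared by 55.3% of all genes. Each of these 6 also had one in 1 or 2 neonatal libraries, which held for 31.4% of all genes. None of the 9 genes had its promoter peak in the adult libraries exclusively (assigned in all 3, and in none of the neonatal ones), against 5.09% of all genes. That count rested on neonatal 2: without it, H2-K1, B2m and Tap1 met the condition, as did 23.7% of all genes. Without adult 3 it was 1 gene, Nlrc5, against 5.42%.

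**Figure D1:**
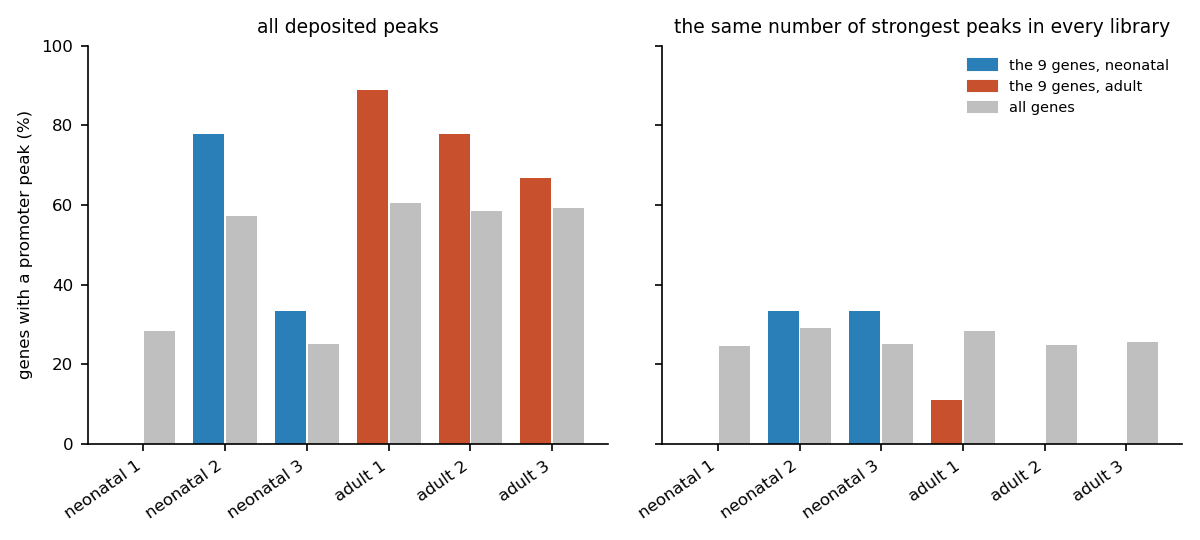
Percentage of genes with an assigned promoter peak in each of the 6 libraries (x axis), for the 9 antigen presentation and interferon genes (blue, neonatal; red, adult) and for all 20137 genes (grey), with each whole list on the left and the 7353 strongest peaks of each library on the right. With all peaks the 9 genes reach 66.7% to 88.9% in the adult libraries; with equal numbers they stand at 0 to 11.1% there and at 33.3% in neonatal 2 and 3.

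To take the number of peaks out of the comparison, the 7353 strongest peaks by p-value were kept in every list. Among all genes the share with a promoter peak then lay between 24.7% and 29.2% in every library. Of the 9 genes, 0, 3 and 3 kept one in neonatal 1 to 3, and 1, 0 and 0 in adult 1 to 3. H2-D1, Tap2 and Irf1 were marked in neonatal 2 and 3 and in no adult library, a pattern (2 or 3 neonatal libraries, no adult one) that 4.74% of all genes showed. The neonatal 3 list, with 7353 peaks, was kept whole, and its H2-D1, Tap2 and Irf1 peaks ranked 6880, 2873 and 901. The strongest H2-D1 promoter peaks of adult 1 to 3 ranked 8910, 10990 and 10306 and so fell outside the cut. H2-K1 was kept in adult 1 only. The direction of the age difference at these genes therefore depended on whether whole lists or equal numbers of peaks were compared, and a peak below the 7353 strongest of an adult list was still a called peak there.

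The extent of marking was measured as the number of bases under a peak within 3000 bp of each start, and compared on the scale of log2(bases + 100). All 9 genes had at least 1 covered base in some library. At 6 of the 9 genes the lowest adult value exceeded the highest neonatal one, against 72.2% of 13324 genes with any covered base. The median difference, adult minus neonatal, was 1.88 over the 9 genes and 1.86 over all 13324. With 3 libraries against 3 the exact two-sided permutation test cannot give a p below 0.1, so no gene could pass 0.05 alone, and Benjamini-Hochberg adjusted values were 0.138 at the lowest.

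**Figure D2:**
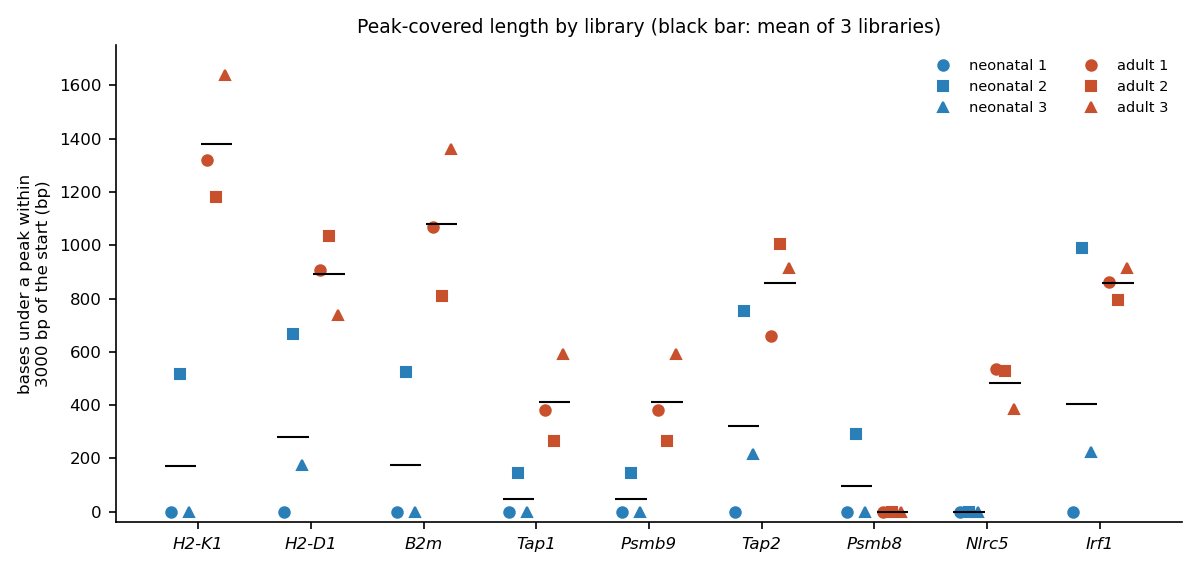
Bases under a peak within 3000 bp of the gene start (y axis) for each of the 9 genes (x axis), with 1 point per library (blue, neonatal; red, adult; the symbol gives the replicate number) and a black bar at the mean of 3 libraries. Nlrc5 lies at 0 in every neonatal library and at 387 to 536 bp in the adult libraries, whereas at Irf1 neonatal 2, with 989 bp, is above all adult libraries.

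The heavy chain gene H2-K1 had the largest difference in covered length of the 9. Peaks covered 0, 518 and 0 bp in neonatal 1 to 3 and 1322, 1181 and 1641 bp in adult 1 to 3. The adult values, 1381 ± 236 bp (SD, n = 3), did not overlap the neonatal ones, 173 ± 299 bp (SD, n = 3), and the difference was 3.00 on the log2 scale (exact permutation p = 0.1, adjusted p = 0.138). The adult peaks reached from -530 to 1144 bp from the start, while the neonatal 2 peak lay 205 to 722 bp after it. The authors' fold over background, usable within 1 list only, was 4.61 for the neonatal 2 peak, at rank 17481 of 31189, and 11.9, 7.73 and 9.80 for the strongest adult peaks, at ranks 7116, 11104 and 8540. In the printed promoter, the looser response element and the X2 and Y cores lay under the peak of adult 1 and adult 3 and between the 2 peaks of adult 2. Enhancer A was covered in all 3 adult libraries and in no neonatal library.

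H2-D1, the other heavy chain, was marked in 2 neonatal libraries. Covered length was 0, 666 and 175 bp in neonatal 1 to 3 and 908, 1036 and 739 bp in adult 1 to 3, a difference of 1.84 (exact permutation p = 0.1, adjusted p = 0.138), which was 1.10 without neonatal 1 and 2.57 without neonatal 2. The groups did not overlap, although neonatal 2 came close to adult 3. The strongest promoter peak had a fold of 7.60 in neonatal 2, 3.56 in neonatal 3 and 8.74, 8.09 and 8.95 in adult 1 to 3. It began at 0 bp in neonatal 2 and at -18, -30 and -23 bp in adult 1 to 3, and the motif block of the printed promoter was under no peak in any library. H2-D1 also had the only distal peaks shared by the 3 adult libraries, between -5232 and -4490 bp from its start, with none in the neonatal libraries. Peaks outside promoters that followed this adult-only pattern were assigned to 10.5% of all genes. H2-K1 and H2-D1 are close relatives, so reads may be shared or lost between them; how multiply aligned reads were treated is not given in the sources used here.

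B2m encodes the light chain that all classical heavy chains need. Its covered length was 0, 525 and 0 bp in neonatal 1 to 3 and 1069, 808 and 1361 bp in adult 1 to 3, without overlap. The difference was 2.65 (exact permutation p = 0.1, adjusted p = 0.138). Marking came in blocks on both sides of the start. One lay mainly after it, in neonatal 2 (135 to 659 bp, fold 4.93) and in all adult libraries (fold 5.09, 5.96 and 5.75), and began at -37 bp in adult 3. The other lay before it in the adult libraries alone, between -952 and -163 bp from the start (fold 2.89 to 3.98). The response element, the upstream X2 core and the Y core of the printed B2m promoter lay in the gap between those blocks in every adult library. Peaks covered 27, 123 and 87 of the 300 bases of the RefSeq window in adult 1 to 3, where the median over genes with a peak within 3000 bp was 156, 137 and 259 bases.

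**Figure D3:**
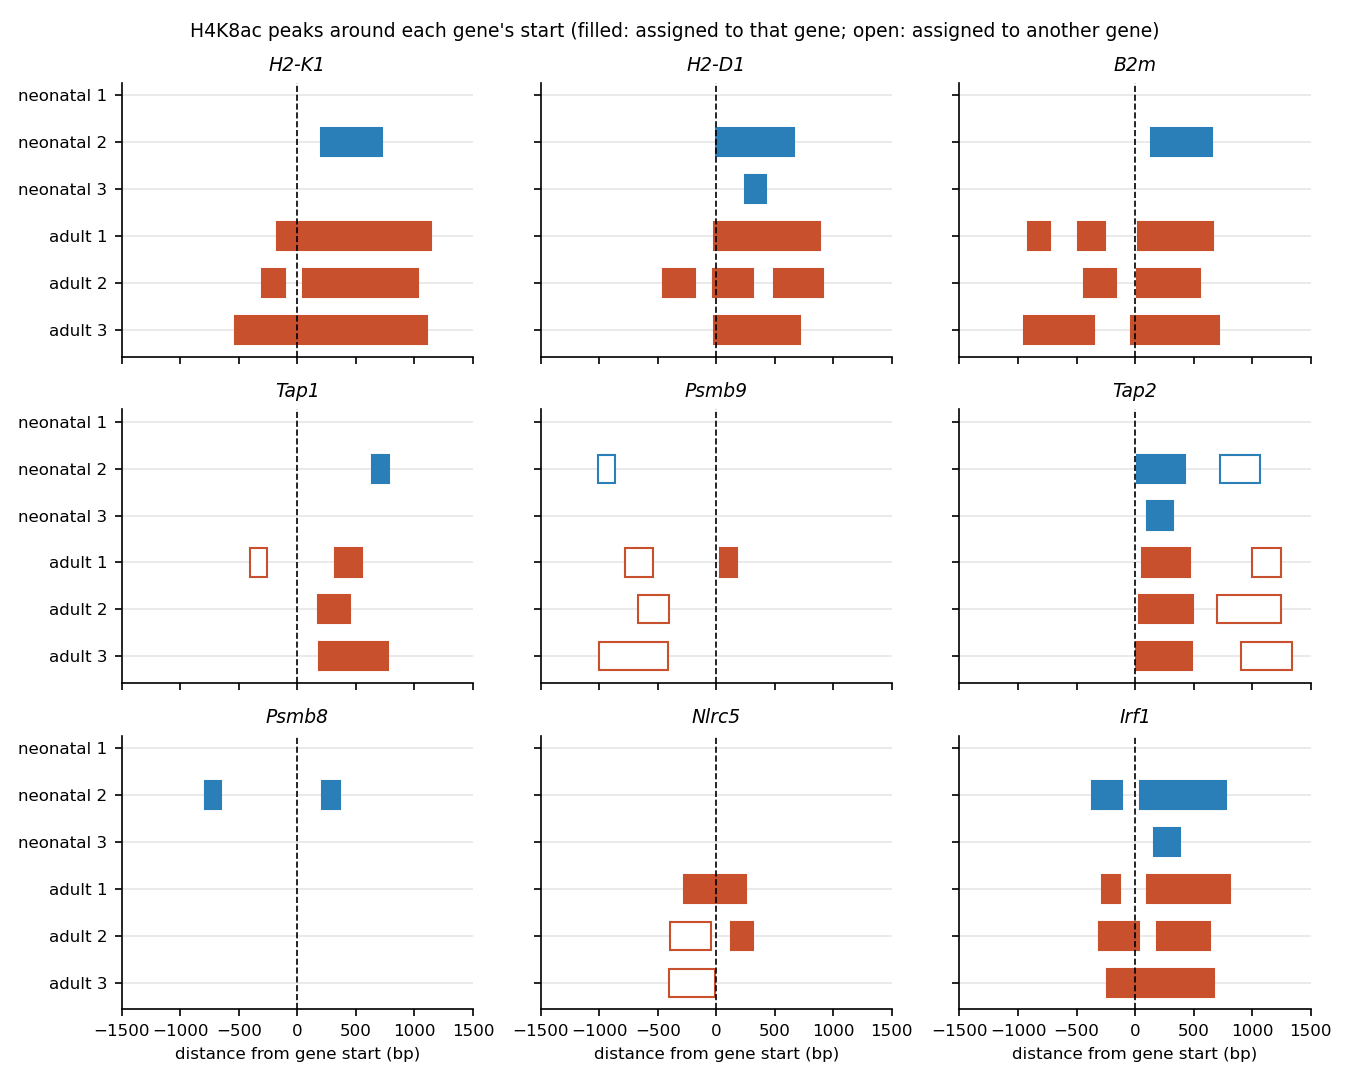
Position of H4K8ac peaks relative to the start of each gene (x axis, bp; positive values lie in the direction of transcription) in the 6 libraries (rows; blue, neonatal; red, adult), filled where the authors assigned the peak to that gene and open where they assigned it to another. H2-K1, H2-D1, Tap2 and Irf1 carry peaks mainly after the start in neonatal 2 and the adult libraries, and Psmb8 is marked in neonatal 2 alone. For Irf1 the start shown is the first that RefSeq lists. B2m shows a gap before its start in the adult libraries, which extends over the start in adult 1 and 2.

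The transporter genes differed from each other. Tap1 was covered over 0, 147 and 0 bp in neonatal 1 to 3 and over 381, 266 and 593 bp in adult 1 to 3, with peaks of low fold (3.07 to 4.70) for the gene's own assignments. These values did not overlap between ages, and the difference was 1.88 (exact permutation p = 0.1, adjusted p = 0.138). Tap2, 16923 bp away, was covered over 0, 752 and 218 bp in the neonatal and 660, 1004 and 916 bp in the adult libraries. Neonatal 2 lay above adult 1 here, so the groups overlapped, with a difference of 1.66 (exact permutation p = 0.2, adjusted p = 0.251), which was 0.87 without neonatal 1 and 2.41 without neonatal 2. The Tap2 peak at the start had a fold of 8.36 and 5.23 in neonatal 2 and 3 and of 6.99, 8.04 and 5.52 in adult 1 to 3. A further peak 703 to 1343 bp after the Tap2 start, in neonatal 2 and the 3 adult libraries, was assigned to Gm20496.

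Of the 2 immunoproteasome genes among the 9, Psmb8 had 2 small promoter peaks in neonatal 2 (fold 4.31 and 3.20), none in neonatal 1 or 3 and none in the adult libraries. Peaks covered 291 bp in that 1 library, and the difference was -0.66 (exact permutation p = 1, adjusted p = 1), or 0.00 without neonatal 2. Psmb8 was the only one of the 9 genes with no adult peak near its start. Psmb9 had 1 assigned peak, in adult 1 (fold 3.61, 145 bp wide). Because its start faces that of Tap1, its covered length was the same as that of Tap1 in all 6 libraries, and peaks there cannot be credited to one of the pair. No peak covered any of the 300 bases of the Tap1 window in any library. Among genes with a peak within 3000 bp, 14.7%, 15.8% and 12.4% in adult 1 to 3 also had their window wholly uncovered. The authors' distances were counted from a later Tap1 start. From it, the assigned Tap1 peaks of adult 2 and 3 lay at 0 bp. That of adult 1 lay at 73 bp and that of neonatal 2 at 390 bp.

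Nlrc5, the class I transactivator, was the 1 gene with no peak near its start in any neonatal library and one in every adult library when peaks were taken by position, a pattern shared by 4.26% of all genes. Covered length was 0 bp in neonatal 1 to 3 and 536, 529 and 387 bp in adult 1 to 3. The difference was 2.54 (exact permutation p = 0.1, adjusted p = 0.138). Peak fold was 5.78 in adult 1, 4.82 and 4.25 in adult 2 and 3.87 in adult 3. The authors assigned the adult 3 peak and 1 of the adult 2 peaks, which lie just before the Nlrc5 start, to 9330175E14Rik, so by assignment Nlrc5 was marked in adult 1 and 2 only. Neonatal 2 and adult 3 also shared a peak in an Nlrc5 exon about 58 kb after the start (fold 3.23 and 4.64). Adult 3 alone had a distal intergenic peak assigned to Nlrc5, chr8:94528462-94528637 (fold 4.20). Of the 9 genes, H2-D1 and Nlrc5 alone had peaks assigned outside promoters. H2-D1 had 2, 1 and 1 in adult 1 to 3, and Nlrc5 had 1 in neonatal 2 and 2 in adult 3.

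Irf1, an interferon-induced transcription factor, had its highest value in a neonatal library. Covered length was 0, 989 and 226 bp in neonatal 1 to 3 and 861, 796 and 915 bp in adult 1 to 3. The ages overlapped, with a difference of 1.54 (exact permutation p = 0.4, adjusted p = 0.454), which was 0.68 without neonatal 1 and 2.40 without neonatal 2. RefSeq also lists a later Irf1 start, chr11:53770473. Its 300-base window was covered over 0, 300 and 175 bp in neonatal 1 to 3 and over 300 bp in each adult library. The main peak, just after the first listed start, had a fold of 9.72 in neonatal 2 and 5.54 in neonatal 3, within the strongest 8.32% and 12.3% of those lists. In adult 1 to 3 its fold was 5.99, 5.84 and 5.30, at 29.7%, 32.3% and 32.8% of the longer adult lists. The gamma-activated site in the printed promoter was under a peak in adult 2 and 3 and in no other library, and lay in a gap between 2 peaks in neonatal 2 and adult 1.

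Over the 9 genes, 74.5% of the bases under peaks within 3000 bp lay after the start, compared with 60.9% over all genes with covered bases. The peaks shared by Tap1 and Psmb9 entered this share for both genes, on opposite sides. For H2-K1 and Irf1, which have a later RefSeq start, only the first listed start was used. The genes with the most similar covered lengths over the 6 libraries were Per2 for H2-K1 (Euclidean distance 0.08 in log2 units), Nol9 for B2m (0.10), Cox5b for Irf1 (0.21), Eif3k for H2-D1 (0.22) and Cycs for Tap2 (0.23). Apart from the 9 genes themselves, the only protein-coding start within 20 kb of one of them was that of Trim69, 13021 bp from B2m, and it had no promoter peak in any library.

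The authors' deposited table of differential sites listed 43888 sites of 400 bp and names no direction. Of its 43634 sites with a positive value, 85.0% to 96.7% overlapped a peak of each adult library and 10.3% to 27.8% a peak of each neonatal library, so positive values of the authors' deposited table were read as higher in adult cells, and the 254 negative ones as higher in neonatal cells. From the relation between its p-values and adjusted p-values, the authors' deposited table rested on 54838 tested sites, of which 79.6% were thus higher in adult cells. Each site took the gene of the deposited peak it shared most bases with. For 51.9% of all genes the authors' deposited table held at least 1 such site, and it did so for 4 of the 9, H2-K1, H2-D1, B2m and Nlrc5, with 5 sites in all. A site with the opposite sign was listed for none of the 9 and for 0.695% of all genes.

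The H2-K1 site of the authors' deposited table, chr17:33999887-34000286, was higher in adult cells by 2.22 on the log2 scale (adjusted p = 9.00e-06). H2-D1 had a promoter site in the authors' deposited table, chr17:35263076-35263475, with 1.24 (adjusted p = 0.0316). Its distal site, chr17:35258032-35258431, was listed in the authors' deposited table with 2.32 (adjusted p = 7.62e-04). The 2 heavy chain promoters thus differed in size of change by the authors' values; the difference between them was not tested. For B2m the authors' deposited table gave 2.36 (adjusted p = 0.00220) at chr2:122146957-122147356, in the upstream block that had no neonatal peak. No site was listed over the stronger block after the B2m start. For Nlrc5 the authors' deposited table gave 2.08 (adjusted p = 0.00464) at chr8:94434051-94434450, across the start. No listed site was assigned to Tap1, Tap2, Psmb8, Psmb9 or Irf1. By position, the authors' deposited table held a site with 1.51 (adjusted p = 0.0181) after the Tap2 start, given to Gm20496. Another with 1.40 (adjusted p = 0.00390) in the authors' deposited table, about 6 kb before Irf1, was given to Mir7671.

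**Figure D4:**
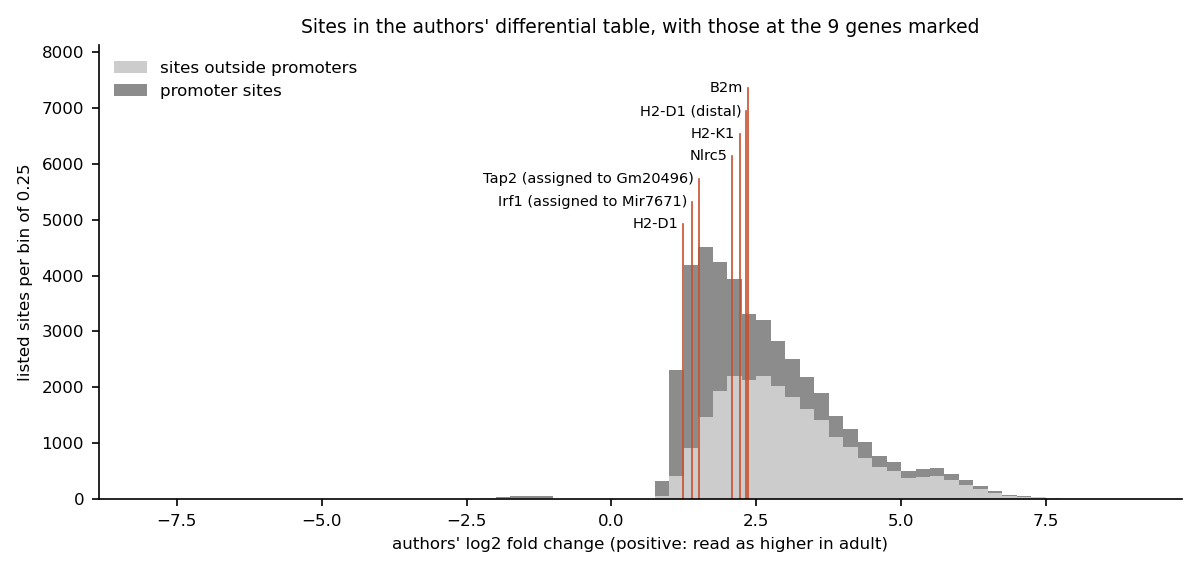
Number of sites in the authors' deposited table (y axis, per bin of 0.25) by log2 fold change of adult over neonatal cells (x axis), split into promoter and other sites, with red lines at the sites at or near the 9 genes. The marked sites run from 1.24 to 2.36, to the left of the median of 2.42 over all sites higher in adult cells.

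All 7 of these sites lay below the median of 2.42 over the adult-higher sites of the authors' deposited table, at percentiles from 5.76 to 48.3. By class, the authors' deposited table gave a median of 1.87 for promoter and of 2.79 for distal intergenic sites. The H2-K1, B2m and Nlrc5 promoter sites were thus above the promoter median, and the promoter sites at H2-D1, after the Tap2 start and before Irf1 below it. The distal H2-D1 site was below the distal median. Since the median over all 54838 tested sites of the authors' deposited table was at least 2.04, a positive value at these genes was the common state of the table.

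A wider list of 91 genes of the same pathways, including the 9, was marked at 21, 54 and 23 promoters in neonatal 1 to 3 and at 62, 62 and 64 in adult 1 to 3. Without the 9 genes, 25.6%, 57.3% and 24.4% of the remaining 82 had a promoter peak in the neonatal and 65.9%, 67.1% and 70.7% in the adult libraries, beside 28.3%, 57.2% and 25.2%, and 60.5%, 58.4% and 59.3%, of all genes. By authors' assignment, 8 of the 91 were marked in the 3 adult libraries and in none of the neonatal ones (8.79%, beside 5.09% of all genes). They were the non-classical class I genes H2-T22 and H2-T24, the interferon signalling genes Irf9 and Tyk2, the RNA sensors Ifih1 and Dhx58, the interferon-induced gene Xaf1, and the class II loading gene H2-DMa. By position, however, peaks lay within 3000 bp of the H2-DMa start in every library and of the H2-T22 start in neonatal 2. Another 15 genes were marked in all 6 libraries (16.5%, beside 18.8% of all genes), and the authors' deposited table listed a neonatal-higher site for none of the 91, beside 0.695% of all genes.

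Of the 15 genes marked in all 6 libraries, 9 belonged to the 14 genes of interferon receptors and JAK-STAT signalling: Ifnar1, Ifnar2, Jak1, Jak2, Stat3, Socs1, Socs3, Ptpn2 and Ptpn11. These genes receive and damp the interferon signal. Promoter peaks were present at 10, 12 and 10 of the 14 in the neonatal and at 13 of 14 in each adult library, where all genes stood at 28.3%, 57.2% and 25.2%, and at 60.5%, 58.4% and 59.3%. Among 28 interferon-stimulated genes, 4, 12 and 1 had a promoter peak in the neonatal and 15, 17 and 17 in the adult libraries, with Adar the 1 gene of them marked in all 6. The difference between these 2 lists was not tested. No promoter peak was assigned to 9 of the 28 in any library, beside 33.2% of all genes. By position, 2 of those 9 did have peaks near their starts: Isg15 over 571, 1275 and 0 bp in the neonatal and 1485, 1572 and 1582 bp in the adult libraries, and Cd274 over 497, 390 and 165 bp in adult 1 to 3. The other 7, among them Ifit1, Ifit3, Cxcl10 and Ifitm3, had 0 bp in every library.

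The counts in the remaining sublists are to be read against the shares over all genes, 28.3%, 57.2% and 25.2% in neonatal 1 to 3 and 60.5%, 58.4% and 59.3% in adult 1 to 3. Of 15 genes for peptide supply and loading, 4, 13 and 5 were marked in the neonatal and 13, 12 and 12 in the adult libraries, with Erap1 and Lnpep, which trim peptides, marked in all 6. The standard proteasome subunits Psmb5, Psmb6 and Psmb7, whose places the immunoproteasome subunits take, had a promoter peak in neonatal 2 and in all 3 adult libraries. Psmb6, for example, was covered over 0, 138 and 0 bp in the neonatal and 631, 398 and 815 bp in the adult libraries. The third immunoproteasome gene, Psmb10, had 705, 1297 and 0 bp in the neonatal and 1779, 1811 and 2262 bp in the adult libraries, unlike Psmb8 with no adult peak. Among 12 class I chain genes, 0, 6 and 2 were marked in the neonatal and 7 in each adult library, and H2-Q4, H2-Q6, H2-Q7 and Mr1 had no promoter peak in any library. H2-Q4 and H2-Q7 hold the same 4 motifs as H2-K1 and H2-D1. As at those genes, reads may be shared or lost between related H2 genes, so an absent peak does not show absence of the mark. Among 13 transactivators and interferon regulatory factors in the gene table, 3, 7 and 4 were marked in the neonatal and 8, 8 and 9 in the adult libraries. Irf2, Rfx5 and Rfxap were marked in all 6, while Irf4, Irf5 and Irf8, factors of immune cells, had no promoter peak in any. Of 6 class II genes, 0, 1 and 1 were marked in the neonatal and 3, 2 and 3 in the adult libraries. These counts follow the authors' assignment. By position, H2-Eb1 and Cd1d1, each assigned a promoter peak in neonatal 2 and 3 and every adult library, had 0 bp throughout. Tapbpl, assigned one in neonatal 3 only, had 0, 566 and 383 bp in the neonatal and 1048, 1078 and 1290 bp in the adult libraries.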

How the data were processed

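H4K8ac ChIP-seq peaks of 3 neonatal and 3 adult libraries were analysed, with replicates taken from the labels. The submitters' processing notes name Trim Galore, Bowtie2 2.4.5, SAMtools, deepTools, MACS2, DiffBind, ChIPseeker and the build GRCm38, without parameters. Per the file headers, each deposited peak list gives a peak's score, its fold over background (a ratio), its p-value and q-value as −log10, and a distance to the assigned gene's start. The authors' deposited table of differential sites has no header, and its columns were read as log2 fold change, p-value and adjusted p-value from their values. Each library has its own peak list. Read depth is unknown, so no interval or floor from counts was computed.

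The 9 genes and all gene lists were chosen with earlier results of these data known. All 9 genes were named; of the wider lists, genes marked in all 3 adult and no neonatal library or in all 6 were named, and others only as examples chosen after their values were seen. Peaks were counted by the authors' promoter assignment or by position within 3000 bp of a start, the first that RefSeq's promoter table lists or otherwise the gene's outer end. Bases under peaks were compared as log2(bases + 100) by an exact two-sided permutation test and Benjamini-Hochberg adjustment over 13324 genes, and the scripts were tested on simulated data. Whether replicates are separate animals beyond the label is not stated. Python 3.11.15, numpy 2.4.6, pandas 2.3.3, scipy 1.17.1 and Biopython 1.88 were used. Alternatives were a 1000 bp window, position in place of assignment, gene bodies, a q limit of 0.005, equal numbers of peaks, each library left out and a replicate block.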

Additional observations from a re-analysis of the deposited data

How the results depend on the processing

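The mean number of the 9 genes with a promoter peak, adult minus neonatal, was 3.67 with all peaks and -1.67 with equal numbers of peaks per library, and for the 91-gene list it was 30 and -6.33. With single libraries left out, it ran from 2 to 5.50 for the 9 genes and from 24.2 to 40.7 for the list. The number of genes marked in the adult libraries exclusively was 0 by assignment and 1 by position (Nlrc5), and ran from 0 to 3 with single libraries left out. The number of genes whose adult libraries all lay above the neonatal ones in covered length was 6 with all peaks and 0 with equal numbers of peaks, and ran from 6 to 8 with single libraries left out. With all peaks, 72.2% of 13324 genes were so separated. The share over all genes is not given for the other settings, so those counts have no background beside them. With equal numbers the log2 difference in covered length was -1.47 at H2-D1, -1.34 at Tap2 and -1.59 at Irf1, beside a median of 0.97 over 9011 genes. These were the 3 reversals among 99 alternatives for covered length. In the same setting the difference was 1.28 at H2-K1 and 0.00 at B2m, Tap1, Psmb9, Psmb8 and Nlrc5, which kept no peak near their starts. The equal-number setting keeps a smaller part of the longer adult lists by construction.

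Same-numbered libraries did not deviate together (correlations of -0.02, 0.01 and 0.06), so the numbers were not taken to pair them. With a replicate block, 7 genes were higher in the adult library of every pair, and the smallest p such a test of 3 pairs allows is 0.25. Any gene whose adult libraries all lie above the neonatal ones meets this condition, so at least 72.2% of 13324 genes did. Of the authors' sites at the 9 genes, 5 were listed and 4 of those had an adjusted p under 0.005 in the authors' deposited table. Without read totals, an absent peak does not show absence of the mark, least of all in neonatal 1 and 3.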
